A study of Mus musculus with 6 samples.

Results

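The transforming growth factor beta (TGF-β) genes described here are the 3 ligand genes *Tgfb1*, *Tgfb2* and *Tgfb3*, the 3 receptor genes *Tgfbr1*, *Tgfbr2* and *Tgfbr3*, the signal transducer *Smad3*, the inhibitory SMAD *Smad7*, the target gene *Tgfbi* and the p38α kinase gene *Mapk14*. They were chosen by symbol, with earlier results of these data known, and all 10 were found among the 54146 genes of the deposited table. D2A1, a mouse mammary tumor line, was grown in Matrigel, where it forms spheroids, and received either 50 nM recombinant SLURP1 (rSLURP1), a secreted Ly6/uPAR-related protein, or 50 nM recombinant GST (rGST), the control protein. Each treatment was measured in 3 polyA RNA libraries of the same line, with the genotype labelled Control, so the comparison between the 2 recombinant proteins is the only one the samples allow. Nothing in the labels says that the 3 libraries of a treatment came from separate cultures, and the p-values below measure the spread between these libraries. In bulk RNA of this kind, fewer cells of a type and less RNA per cell cannot be told apart.

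TGF-β ligands are secreted in a latent form that is held in the extracellular matrix until it is released. The active ligand brings the type II receptor and the type I receptor together, with the type III receptor as a co-receptor, and the type I receptor then phosphorylates SMAD2 and SMAD3, which enter the nucleus with SMAD4. SMAD7 is induced by the pathway and inhibits it, and the receptors also feed the stress kinase p38 through TAK1. In breast cancer the pathway restrains proliferation in some settings and drives invasion and matrix production in others, and TGF-β2 and active p38 have been linked to dormancy of disseminated tumor cells.

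Values are TPM, the estimated abundance of a gene's transcripts corrected for transcript length and for the total of the library. A gene was tested with limma on log2(TPM + 1) if it reached 1 TPM in at least 3 libraries, and it was called at a Benjamini-Hochberg adjusted p of 0.05 or less over all 12301 tested genes. Fold changes are rSLURP1 over rGST on that scale, which understates the change of low genes. Treated and control libraries differed broadly. At these thresholds 58.5% of the tested genes were called lower and 8.66% higher, and the median log2 fold change of all tested genes was -0.33. Because TPM values in a library sum to a fixed total, each member is also given relative to that median and after median-ratio scaling of the libraries, which brought the median to -0.003 and called 25.3% of genes lower and 25.8% higher. Libraries of the same treatment correlated at 0.983 to 0.986 (Pearson, across genes) and libraries of different treatments at 0.941 to 0.950.

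The labelled mammary tumor identity was checked against marker genes. *Krt18*, a luminal keratin, stood at 191 to 199 TPM in all 6 libraries, whereas *Epcam*, *Krt5* and *Krt14* were listed at 0 and *Cdh1* did not exceed 0.07 TPM, so these defining epithelial markers were at or near 0. *Krt8*, the keratin partner of *Krt18*, was at 1.40 to 1.66 TPM in rGST and at 0.51 to 0.81 TPM in rSLURP1 libraries. The 6 mesenchymal markers summed to 1298 to 1461 TPM in rGST and to 662 to 719 TPM in rSLURP1 libraries, mostly *Vim*. *Cdh2* was at most 0.05 TPM and *Col1a2* at most 0.49 TPM. *Acta2* and *Col1a1* were below 1 TPM in every rSLURP1 library. Of 7 immune markers, *Cd68* alone reached 1 TPM, and the list summed to 3.58 to 4.20 TPM against 8.12 to 10.7 TPM, while *Ptprc* was at most 0.01 TPM and *Adgre1* was listed at 0. The 4 endothelial markers summed to at most 0.31 TPM, and of 3 platelet markers *Itga2b* alone was above 1 TPM. The part of these marker shifts in the results below was not tested.

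Of the 10 genes, 9 were tested. Called lower in rSLURP1 were 7 of them (*Tgfb2*, *Tgfb3*, *Tgfbr2*, *Tgfbr3*, *Smad3*, *Smad7* and *Mapk14*), against 58.5% of all tested genes, and 0 were called higher, against 8.66%. The 2 not called were *Tgfb1* and *Tgfbr1*. On the log2(TPM + 1) scale *Tgfb2* and *Tgfb3* were lower by at least 2-fold, a size reached by 7.06% of tested genes in that direction and by 1.15% in the other. In TPM itself the means of *Tgfbr3* and *Smad7* were also below that line, at 44.8% and 49.8% of the control. *Tgfb2* reached 1 TPM in rGST libraries alone, so its place in both counts was set by the filter, and with a filter of 1 TPM in all 6 libraries it was not tested and 6 of the genes were called lower. Of the 9 tested genes, 7 had every rSLURP1 library below every rGST library, beside 61.7% of all tested genes. They are the same 7 that were called lower, so this is not a separate result. For *Tgfb2* the filter set this arrangement as well. The median log2 fold change of the 9 tested genes was -0.91, beside -0.33 for all tested genes. *Tgfb2* is among those below that median, a place also set by the filter. After median-ratio scaling 6 were called lower and 2 higher, against backgrounds of 25.3% and 25.8%. *Tgfb2* is among the 6, and the same filter set its place there. In that scaling *Mapk14* was no longer called, and *Tgfb1* and *Tgfbr1* were the 2 called higher.

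**Figure D1:**
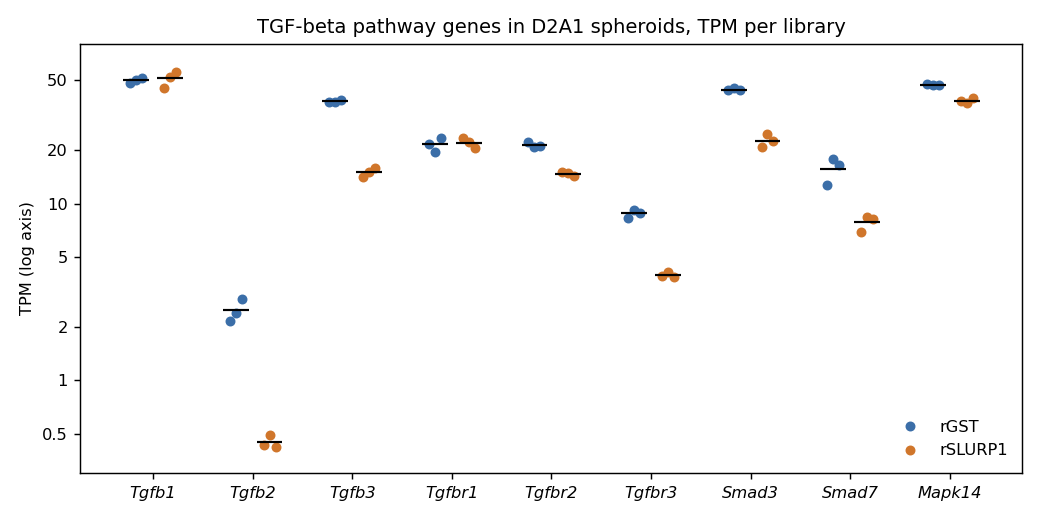
TPM of each tested TGF-β pathway gene in every library (vertical axis, log scale), with rGST libraries in blue, rSLURP1 libraries in orange and a bar at the mean of each 3. In TPM as deposited the rSLURP1 points lie below the rGST points for 7 genes, of which *Mapk14* turns direction under median-ratio scaling, and overlap with them for *Tgfb1* and *Tgfbr1*.

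Promoters of genes that were not called in TPM and of some genes that fell are shown side by side. They were searched for motifs of factors the study and the pathway turn on, and windows not shown hold such motifs too. Windows from RefSeq (GRCm38.p6) held 250 bases before and 50 bases from the transcription start on, and 7 of the 10 genes had an entry. Those without were *Tgfb3*, *Tgfbr3* and *Smad7*. Searched on both strands, with overlapping matches allowed, were the SMAD-binding motif CAGAC, the AP-1 motif TGACTCA, the GC box CCGCCC read by SP and KLF factors, and the KLF4-type motif CCCCACCC. Of 32851 mouse promoter windows, 49.6% held the SMAD motif, 5.20% the AP-1 motif, 35.7% the GC box and 10.0% the KLF4-type motif. Capitals mark the matches and all sequences run 5′ to 3′ on the strand of the gene. Positions count from the start base, which is 1. The *Tgfb1* window (chr7:25686752-25687051, plus strand), the *Tgfb2* window (chr1:186705940-186706239, minus strand), the first of 2 *Tgfbr1* windows (chr4:47352972-47353271, plus strand), the *Tgfbr2* window (chr9:116175314-116175613, minus strand) and the *Smad3* window (chr9:63757945-63758244, minus strand) read as follows.
Tgfb1: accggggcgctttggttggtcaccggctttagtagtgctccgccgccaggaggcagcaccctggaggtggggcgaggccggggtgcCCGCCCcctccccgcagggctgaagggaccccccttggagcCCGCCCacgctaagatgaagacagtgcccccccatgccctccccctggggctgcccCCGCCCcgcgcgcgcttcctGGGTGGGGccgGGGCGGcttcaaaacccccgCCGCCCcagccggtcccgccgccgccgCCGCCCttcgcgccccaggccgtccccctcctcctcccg
Tgfb2: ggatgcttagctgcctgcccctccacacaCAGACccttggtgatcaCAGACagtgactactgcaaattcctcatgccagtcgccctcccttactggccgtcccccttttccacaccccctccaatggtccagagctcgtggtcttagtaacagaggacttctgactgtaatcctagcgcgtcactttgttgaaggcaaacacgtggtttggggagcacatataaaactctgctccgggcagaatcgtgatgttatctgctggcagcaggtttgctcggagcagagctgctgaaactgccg
Tgfbr1: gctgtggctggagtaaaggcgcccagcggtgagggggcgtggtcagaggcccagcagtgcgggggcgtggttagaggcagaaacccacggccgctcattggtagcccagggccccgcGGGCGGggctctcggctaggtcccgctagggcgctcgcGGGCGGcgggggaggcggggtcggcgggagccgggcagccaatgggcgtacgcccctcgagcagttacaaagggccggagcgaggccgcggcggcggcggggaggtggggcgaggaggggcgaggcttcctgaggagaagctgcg
Tgfbr2: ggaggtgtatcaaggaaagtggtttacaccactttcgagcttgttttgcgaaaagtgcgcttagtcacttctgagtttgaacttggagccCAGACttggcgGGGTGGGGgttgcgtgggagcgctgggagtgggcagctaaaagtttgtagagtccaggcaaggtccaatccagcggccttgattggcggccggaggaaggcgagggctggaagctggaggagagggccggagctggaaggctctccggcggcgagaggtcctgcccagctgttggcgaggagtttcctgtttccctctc
Smad3: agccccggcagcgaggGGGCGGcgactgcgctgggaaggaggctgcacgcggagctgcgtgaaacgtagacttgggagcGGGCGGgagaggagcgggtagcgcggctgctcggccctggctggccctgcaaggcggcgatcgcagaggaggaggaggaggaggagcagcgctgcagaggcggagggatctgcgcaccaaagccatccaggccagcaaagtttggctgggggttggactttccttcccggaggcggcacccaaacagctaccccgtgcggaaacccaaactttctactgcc

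The *Tgfb1* window was 77.0% G and C, against a median of 52.7% over all windows, and held 6 GC boxes at -164, -123, -67, -36, -16 and 12 and a KLF4-type motif at -47 on the reverse strand. The *Tgfb2* window was 54.3% G and C and held SMAD motifs at -221 and -204 and no GC box. The *Tgfbr1* window (74.7% G and C) held GC boxes at -133 and -95, and the *Smad3* window (67.7%) held them at -234 and -171. In the *Tgfbr2* window (59.0%) a SMAD motif at -160 was followed by a KLF4-type motif at -149 on the reverse strand. The AP-1 motif was in none of the 9 windows of the 10 genes. Of the windows not printed, the first of *Mapk14* held a GC box at -31 and the second *Tgfbr1* window a SMAD motif at -203. The *Tgfbi* window held SMAD motifs at -239 and -85 and GC boxes at -124 and 16. GC boxes were thus found both in windows of genes that were not called in TPM (*Tgfb1*, *Tgfbr1*) and of genes called lower in TPM (*Smad3*, *Mapk14*). These matches are letters in a window and not shown to be bound sites.

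Among the ligands, *Tgfb3* and *Tgfb2* fell while *Tgfb1* was not called. *Tgfb1* (ENSMUSG00000002603.15, chr7:25687002-25705077), the ligand most widely made by tumor cells, was at 48.3, 50.0 and 51.2 TPM in rGST libraries 1 to 3 and at 45.3, 52.3 and 55.7 TPM in rSLURP1 libraries 1 to 3. The treatments overlapped, with 1 rSLURP1 library below and the other two above all rGST libraries. The means were 49.8 ± 1.48 and 51.1 ± 5.32 TPM (SD, n = 3 each). The log2 fold change was 0.03 with a 95% interval of -0.15 to 0.21 (limma adjusted p = 0.736), which lay 0.36 above the median of all genes. After median-ratio scaling it was 0.38 (limma adjusted p = 0.00434).

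*Tgfb3* (ENSMUSG00000021253.7, chr12:86056745-86079041), which encodes the third ligand, was at 37.6, 37.4 and 38.8 TPM in rGST and at 14.2, 15.01 and 15.9 TPM in rSLURP1 libraries. All rSLURP1 libraries were far below the rGST libraries, and both treatments had a narrow spread. The mean fell from 37.9 ± 0.758 to 15.03 ± 0.870 TPM (SD, n = 3 each), or to 39.7% of the control. The log2 fold change was -1.28 ± 0.061 (SE, limma adjusted p = 3.66e-06), and 3.94% of tested genes had a lower value. It was -0.95 against the all-gene median and -0.94 after median-ratio scaling (limma adjusted p = 1.74e-05).

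*Tgfb2* (ENSMUSG00000039239.14, chr1:186622792-186705989), the ligand linked to dormancy of disseminated cells, was the scarcest of the 3, at 2.18, 2.42 and 2.90 TPM in rGST and at 0.43, 0.49 and 0.42 TPM in rSLURP1 libraries. Every treated library was below 1 TPM and every control library above 2 TPM. The mean fell from 2.50 ± 0.367 to 0.447 ± 0.0379 TPM (SD, n = 3 each), 17.9% of the control, and the log2 fold change of TPM + 1 was -1.27 ± 0.15 (SE, limma adjusted p = 0.000196). With a pseudocount of 0.1 in place of 1 it was -2.24, against -1.33 for *Tgfb3*, so the order of the 2 ligands by size of change depends on the scale. *Tgfb2* entered the test through its rGST libraries alone, so a gene with this pattern had to differ, and its call is a description. It was -0.94 against the all-gene median and -1.09 after median-ratio scaling (limma adjusted p = 0.00064).

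The make-up of the ligand pool stood apart between treatments. *Tgfb1* made up 54.8, 55.7 and 55.1% of the summed ligand TPM in rGST and 75.6, 77.1 and 77.3% in rSLURP1 libraries, a difference of 21.5 percentage points between means of 55.2 ± 0.439% and 76.7 ± 0.938% (SD, n = 3 each). The share of *Tgfb3* was 42.0 ± 0.596% against 22.6 ± 0.895%, and that of *Tgfb2* was 2.77 ± 0.329% against 0.675 ± 0.0795%. For all 3 ligands the shares did not overlap between treatments. The exact two-sided permutation p was 0.1, the smallest that 3 against 3 libraries allow. Shares within a set sum to a fixed total, so these are not 3 separate results. The mean of *Tgfb1* itself was 49.8 TPM in rGST and 51.1 TPM in rSLURP1 libraries, and its higher share went with the lower *Tgfb3* and *Tgfb2*. In TPM, 61.7% of tested genes had every rSLURP1 library below every rGST library. No such background was computed for shares. The summed ligand TPM was 90.2 ± 2.46 in rGST and 66.6 ± 6.18 in rSLURP1 libraries. A share within 1 library does not depend on how whole libraries are scaled.

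**Figure D2:**
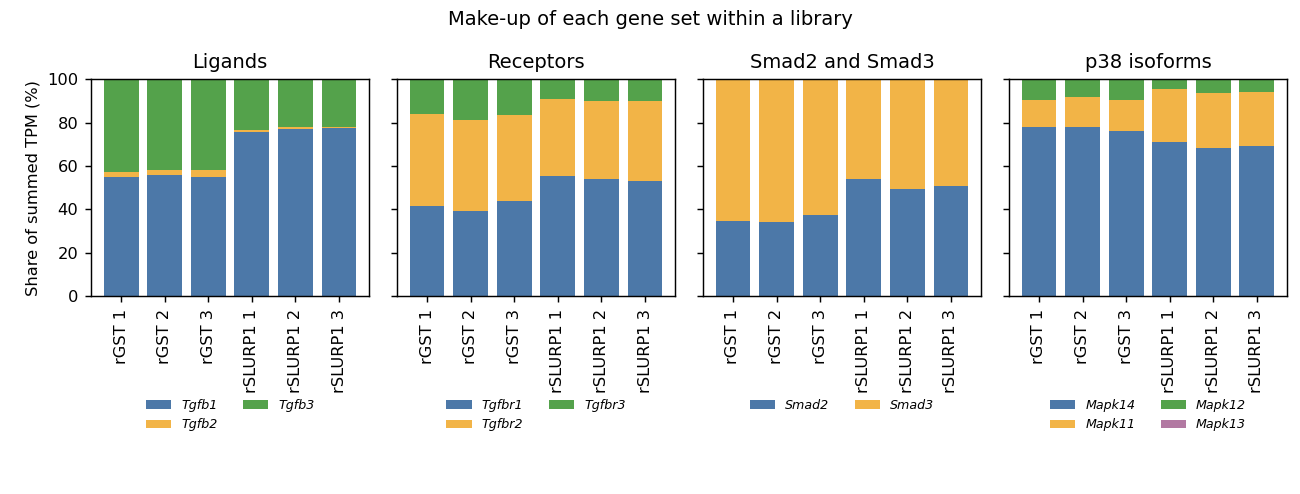
Share of the summed TPM (vertical axis, percent) taken by each gene within a set, in each of the 6 libraries, for the ligands, the receptors, *Smad2* with *Smad3*, and the p38 isoforms. *Tgfb1* takes 54.8 to 55.7% of the ligand sum in rGST and 75.6 to 77.3% in rSLURP1 libraries, and *Mapk11* takes 12.4 to 14.1% and 24.4 to 25.5% of the p38 sum.

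Among the receptors, *Tgfbr3* fell most, *Tgfbr2* fell less and *Tgfbr1* was not called. *Tgfbr3* (ENSMUSG00000029287.14, chr5:107106570-107289629) encodes betaglycan, the co-receptor that presents ligand, and TGF-β2 above all, to the type II receptor. It was at 8.32, 9.26 and 8.84 TPM in rGST and at 3.92, 4.08 and 3.84 TPM in rSLURP1 libraries. The groups were well apart, with all treated libraries near 4 TPM. The log2 fold change was -0.99 ± 0.088 (SE, limma adjusted p = 5.73e-05), with a mean at 44.8% of the control, -0.66 against the all-gene median and -0.69 after median-ratio scaling (limma adjusted p = 0.000487).

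*Tgfbr2* (ENSMUSG00000032440.13, chr9:116084293-116175360), the ligand-binding type II kinase receptor, was at 22.2, 20.8 and 21.1 TPM in rGST and at 15.1, 14.8 and 14.3 TPM in rSLURP1 libraries, again without overlap. The mean was 69.0% of the control and the log2 fold change -0.51 ± 0.061 (SE, limma adjusted p = 0.000247). Relative to the median of all genes it was -0.18, and 31.2% of tested genes had a lower value. After median-ratio scaling it was -0.17 (limma adjusted p = 0.0446), and after quantile normalization -0.11, where it was not called (limma adjusted p = 0.180).

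*Tgfbr1* (ENSMUSG00000007613.15, chr4:47353222-47414931), the type I kinase receptor that phosphorylates SMAD2 and SMAD3, was at 21.8, 19.6 and 23.5 TPM in rGST and at 23.6, 22.2 and 20.7 TPM in rSLURP1 libraries. The treatments overlapped throughout their range. The log2 fold change was 0.04 with a 95% interval of -0.16 to 0.23 (limma adjusted p = 0.720). It lay 0.36 above the median of all genes and was 0.37 after median-ratio scaling (limma adjusted p = 0.0082).

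Within the receptor pool the share of *Tgfbr1* was 41.7 ± 2.28% in rGST and 54.2 ± 1.10% in rSLURP1 libraries, that of *Tgfbr2* 41.3 ± 1.61% and 36.1 ± 0.737%, and that of *Tgfbr3* 17.0 ± 1.44% and 9.67 ± 0.407% (SD, n = 3 each). None of the 3 overlapped between treatments (exact two-sided permutation p = 0.1, the smallest possible). These shares also sum to a fixed total and are not 3 separate results. The mean of *Tgfbr1* itself was 21.6 TPM in rGST and 22.2 TPM in rSLURP1 libraries. The summed receptor TPM was 51.8 ± 1.95 against 40.8 ± 1.91. Among the ligands and receptors, *Tgfbr1* and *Tgfb1* were the genes with a higher share of their own pool in rSLURP1 libraries.

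Of the SMADs, the transducer and the inhibitor fell together. *Smad3* (ENSMUSG00000032402.12, chr9:63646767-63757994) was at 43.7, 45.1 and 43.7 TPM in rGST and at 21.0, 24.7 and 22.5 TPM in rSLURP1 libraries. All treated libraries lay far below the controls. The mean fell from 44.2 ± 0.777 to 22.7 ± 1.89 TPM (SD, n = 3 each), or to 51.5% of the control, and the log2 fold change was -0.93 ± 0.068 (SE, limma adjusted p = 2.18e-05), -0.61 against the all-gene median and -0.59 after median-ratio scaling (limma adjusted p = 0.000139).

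*Smad7* (ENSMUSG00000025880.11), the inhibitory SMAD that is itself a TGF-β target and recruits SMURF ubiquitin ligases to the receptor, was at 12.7, 17.9 and 16.5 TPM in rGST and at 6.89, 8.40 and 8.19 TPM in rSLURP1 libraries. The controls spread widely, yet the lowest of them was above the highest treated library. The log2 fold change was -0.91 ± 0.14 (SE, limma adjusted p = 0.000689), with a mean at 49.8% of the control. It was -0.59 both against the all-gene median and after median-ratio scaling (limma adjusted p = 0.00772). *Smad3* made up 73.9 ± 3.17% of the sum of *Smad3* and *Smad7* in rGST and 74.4 ± 1.02% in rSLURP1 libraries (SD, n = 3 each), which overlapped (exact two-sided permutation p = 0.9), a difference of 0.543 percentage points.

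The other receptor-regulated transducer of the pathway, *Smad2*, was not called in TPM. It had 24.3 ± 1.61 TPM in rGST and 24.1 ± 0.871 TPM in rSLURP1 libraries (SD, n = 3 each), and its log2 fold change was -0.01 (limma adjusted p = 0.908) and 0.33 after median-ratio scaling (limma adjusted p = 0.00454). The share of *Smad3* in the sum of *Smad2* and *Smad3* was 65.5, 65.6 and 62.6% in rGST and 45.8, 50.5 and 49.3% in rSLURP1 libraries, without overlap (exact two-sided permutation p = 0.1, the smallest possible). *Smad2* and this share were chosen for display after the values had been seen.

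*Tgfbi* (ENSMUSG00000035493.10, chr13:56609523-56639562), which encodes a secreted matrix protein and was named for its induction by TGF-β, was at or near 0 in both treatments. It was at 0.03, 0.11 and 0.00 TPM in rGST and at 0.00, 0.00 and 0.01 TPM in rSLURP1 libraries, so it was not tested and no fold change is given.

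*Mapk14* (ENSMUSG00000053436.14, chr17:28691329-28748406), the p38α kinase gene, was at 47.3, 47.0 and 47.1 TPM in rGST and at 38.1, 37.2 and 39.5 TPM in rSLURP1 libraries. The controls agreed closely and all treated libraries were lower, at a mean of 81.2% of the control. The log2 fold change was -0.29 ± 0.046 (SE, limma adjusted p = 0.000912), which was 0.03 above the median of all genes, and 53.0% of tested genes had a lower value. After median-ratio scaling the direction turned, to 0.05 with a 95% interval of -0.06 to 0.16, and the gene was not called (limma adjusted p = 0.419). RNA says nothing of p38 phosphorylation, which was not measured in these libraries.

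**Figure D3:**
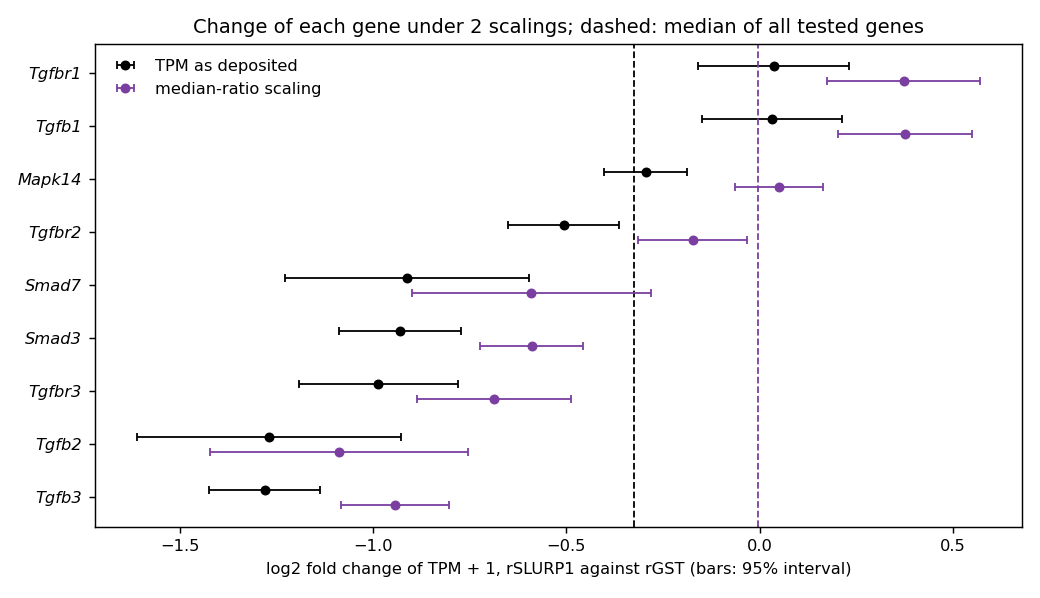
Log2 fold change of TPM + 1, rSLURP1 against rGST, of each tested gene with its 95% interval (horizontal axis), from TPM as deposited (black) and after median-ratio scaling (purple), with the median of all tested genes as a dashed line in each color. *Tgfb3*, *Tgfbr2*, *Tgfbr3*, *Smad3* and *Smad7* lie left of the median in both. So does *Tgfb2*, but it entered the test through its rGST libraries alone, so the filter set its place. *Mapk14* has an interval that spans the median in both, and *Tgfb1* and *Tgfbr1* lie right of it.

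Among p38 isoforms the make-up also stood apart. *Mapk14* was 77.4 ± 1.16% of the summed p38 TPM in rGST and 69.5 ± 1.59% in rSLURP1 libraries, *Mapk12* (p38γ) 9.21 ± 0.900% and 5.55 ± 1.03%, and *Mapk11* (p38β) 13.4 ± 0.940% and 24.9 ± 0.604% (SD, n = 3 each). These 3 shares did not overlap (exact two-sided permutation p = 0.1, the smallest possible). They too are parts of a fixed total and not 3 separate results. *Mapk11* itself was at 7.50, 8.32 and 8.75 TPM in rGST and at 13.03, 13.95 and 14.06 TPM in rSLURP1 libraries, a log2 fold change of 0.68 ± 0.083 (SE, limma adjusted p = 0.000261) and of 0.998 after median-ratio scaling. *Mapk13* stayed near 0.

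The order of the mean levels differed between treatments. In rGST libraries it ran *Tgfb1*, *Mapk14*, *Smad3*, *Tgfb3*, *Tgfbr1*, *Tgfbr2*, *Smad7*, *Tgfbr3*, *Tgfb2* and *Tgfbi*, and the only neighbours whose libraries overlapped were *Tgfbr1* and *Tgfbr2*. In rSLURP1 libraries it ran *Tgfb1*, *Mapk14*, *Smad3*, *Tgfbr1*, *Tgfb3*, *Tgfbr2*, *Smad7*, *Tgfbr3*, *Tgfb2* and *Tgfbi*, where *Smad3* overlapped with *Tgfbr1* and *Tgfb3* with *Tgfbr2*. *Tgfb1* and *Mapk14*, at 49.8 and 47.1 TPM in rGST, were 51.1 and 38.3 TPM in rSLURP1 libraries. *Tgfb3* had the largest log2 fold change of TPM + 1 as deposited, and the genes closest to it in their difference from the rGST mean over the 6 libraries were *Prrx1*, a homeobox gene of mesenchymal cells, *RP24-358M18.2* and *H2-Q4*, with root mean square differences of 0.0302, 0.0410 and 0.0443 on the log2 scale.

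The storage and activation of latent ligand was described with 20 genes, of which 13 were tested. Called lower were 11 and called higher was 1, against 58.5% and 8.66% of all tested genes, and the list median was -0.86. After median-ratio scaling 9 were lower (69.2%, beside 25.3% of all tested genes) and 3 higher (23.1%, beside 25.8%). *Dcn*, whose product decorin binds TGF-β, was at 520, 636 and 587 TPM in rGST and at 5.34, 5.88 and 5.15 TPM in rSLURP1 libraries, 0.940% of the control, with a log2 fold change of -6.49 ± 0.081 (SE, limma adjusted p = 1.37e-08). *Bgn*, which encodes biglycan, a related proteoglycan, fell by 2.34 on the log2 scale. Of the genes with the highest levels, *Thbs1* (thrombospondin 1, which can release the latent ligand) fell from 850 ± 11.1 to 287 ± 20.2 TPM and *Mmp14* (a membrane metalloprotease) from 441 ± 8.47 to 206 ± 4.38 TPM (SD, n = 3 each), by limma log2 fold changes of -1.57 and -1.10. *Ltbp4*, a latent ligand binding protein, was the gene called higher, at 45.2, 43.8 and 47.0 TPM against 49.1, 55.4 and 51.3 TPM (0.19, limma adjusted p = 0.0223), and the call was lost when rGST replicate 1, rGST replicate 2 or rSLURP1 replicate 2 was left out (limma adjusted p = 0.0585, 0.0746 and 0.0589).

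Of 11 genes whose products act at the receptors, 9 were tested, 8 were lower and 0 higher, beside 58.5% and 8.66% of all tested genes, with a median of -0.66. After median-ratio scaling 5 were lower and 1 higher, beside 25.3% and 25.8%. *Cav1*, the caveolin of receptor internalization, was at 214, 187 and 165 TPM in rGST and at 67.3, 59.4 and 64.9 TPM in rSLURP1 libraries (log2 fold change -1.54 ± 0.094, SE, limma adjusted p = 1.01e-05). *Dab2*, an endocytic adaptor, fell by 1.34 on the log2 scale. *Nrp2*, a co-receptor for several growth factors, fell by 1.21. *Fkbp1a*, which encodes FKBP12 and binds the type I receptor, was at 399 ± 4.83 and 361 ± 7.34 TPM (SD, n = 3 each). Its log2 fold change was -0.15 and turned to 0.21 after median-ratio scaling.

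The other SMADs and their regulators, 23 genes with 22 tested, sat near the background. Of these, 15 were lower (68.2%, beside 58.5% of all tested genes) and 1 was higher (4.55%, beside 8.66%), and the median of -0.35 was close to the -0.33 of all genes. After median-ratio scaling 8 were lower and 6 higher, where the all-gene shares were 25.3% and 25.8%. *Smad6*, the second inhibitory SMAD, was at 9.49, 7.52 and 6.87 TPM in rGST and at 2.41, 2.65 and 3.28 TPM in rSLURP1 libraries, a log2 fold change of -1.24 ± 0.15 (SE, limma adjusted p = 0.000211). *Usp11*, a deubiquitinase that acts on the receptor, fell by 1.11 on the log2 scale. *Tgif1*, a SMAD corepressor, was called higher by 0.11 (limma adjusted p = 0.0353), a call that was lost without any single rGST library or without rSLURP1 replicate 1 or 2 (limma adjusted p = 0.0542 to 0.135). *Ppm1a*, a SMAD phosphatase, was at 141 ± 3.33 and 137 ± 4.44 TPM (SD, n = 3 each) and was not called (limma adjusted p = 0.482).

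**Figure D4:**
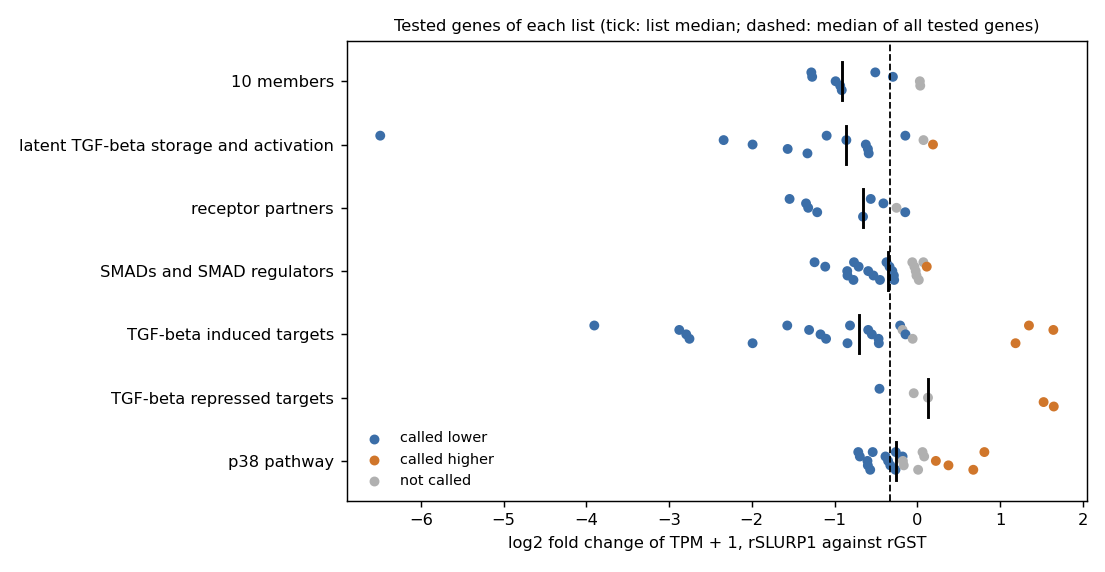
Log2 fold change of TPM + 1, rSLURP1 against rGST (horizontal axis), of every tested gene in the 10 genes described here and in 6 pathway lists (rows), colored by whether the gene was called lower, higher or neither. A tick marks the list median, from -0.91 for the tested of the 10 genes to 0.13 for repressed targets. The -0.91 includes *Tgfb2*, which entered the test through its rGST libraries alone. The dashed line marks the median of all tested genes at -0.33.

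Genes that TGF-β is known to induce moved in both directions. Of 31 listed genes 22 were tested, 17 were lower and 3 higher, against 58.5% and 8.66% of all genes, with a median of -0.70. By at least 2-fold, 9 were lower and 3 higher, against 7.06% and 1.15% of all tested genes. *Col1a1* and *Acta2* entered the test through rGST libraries alone. Their place in the counts of lower genes and below the median was therefore set by the filter. With a filter of 1 TPM in all 6 libraries, 16 of the list were called lower and 3 higher. After median-ratio scaling 12 were lower (54.55%, beside 25.3% of all tested genes) and 4 higher (18.2%, beside 25.8%). *Postn*, which encodes the matrix protein periostin, was at 43.8, 47.5 and 39.0 TPM in rGST and at 1.40, 2.39 and 2.19 TPM in rSLURP1 libraries, a log2 fold change of -3.90 ± 0.14 (SE, limma adjusted p = 1.09e-06). The collagen gene *Col1a1* dropped from 8.78 ± 1.15 to 0.327 ± 0.0833 TPM (SD, n = 3 each), which was -2.88 on the log2 scale and -4.39 with a pseudocount of 0.1. *Fn1*, the fibronectin gene and the most abundant on the list, went from 5416 ± 21.0 to 3084 ± 100.2 TPM (SD, n = 3 each), or -0.81 on the log2 scale, and the angiogenic factor *Vegfa* from 605 ± 36.3 to 244 ± 13.1 TPM, a log2 fold change of -1.31.

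The 3 of these that were higher were *Il11*, *Angptl4* and *Cdkn1a*. The cytokine gene *Il11* was at 1.67, 1.50 and 1.83 TPM in rGST and at 6.64, 9.39 and 6.28 TPM in rSLURP1 libraries (log2 fold change 1.65 ± 0.16, SE, limma adjusted p = 7.79e-05). *Angptl4*, which encodes a secreted inhibitor of lipoprotein lipase, was at 107, 106 and 135 TPM against 278, 302 and 307 TPM (1.35 ± 0.095, SE, limma adjusted p = 1.94e-05). Neither gene overlapped between treatments, and both were also called higher after median-ratio scaling, by 1.91 and 1.70 on the log2 scale.

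Of 6 genes that TGF-β is known to repress, 5 were tested, 1 was lower, 2 were higher and 2 were not called, and the median was 0.13, where 58.5% of all tested genes were lower, 8.66% were higher and their median was -0.33. The 2 that rose encode inhibitors of basic helix-loop-helix factors that BMP signaling induces. *Id1* was at 28.4, 28.2 and 29.5 TPM in rGST and at 83.0, 88.2 and 82.4 TPM in rSLURP1 libraries (1.53 ± 0.049, SE, limma adjusted p = 5.72e-07). *Id3* was at 16.6, 17.5 and 19.2 TPM against 55.1, 54.9 and 64.0 TPM (1.65 ± 0.081, SE, limma adjusted p = 3.92e-06). *Cdc25a*, a cell-cycle phosphatase gene, was at 15.1 ± 0.506 and 10.7 ± 0.634 TPM (SD, n = 3 each) and was called lower by limma, but not after median-ratio scaling (-0.13, limma adjusted p = 0.151). *Myc* was not called at a log2 fold change of 0.13 (limma adjusted p = 0.0871), and was called at 0.48 after median-ratio scaling.

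**Figure D5:**
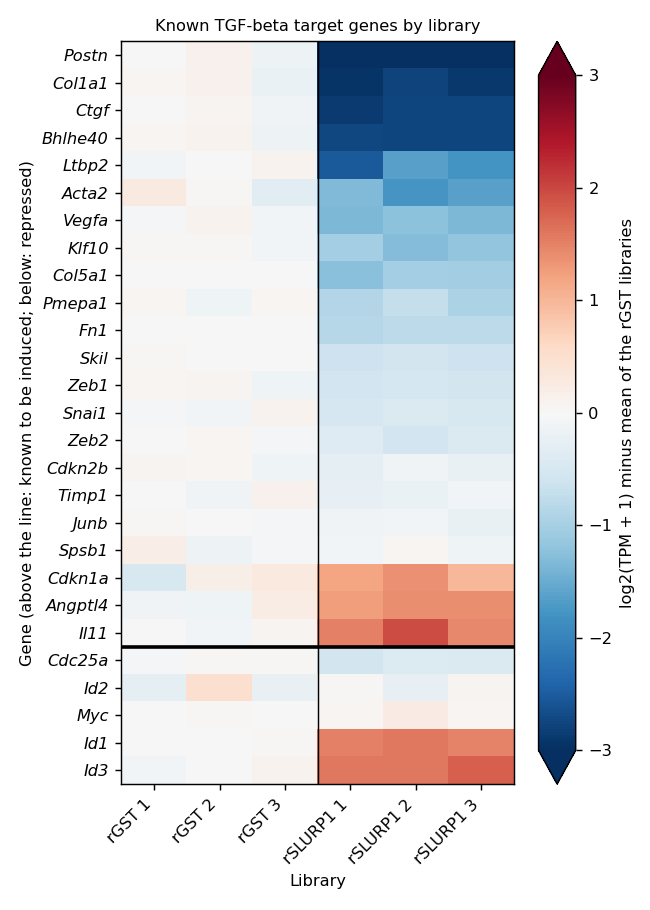
Difference of log2(TPM + 1) from the mean of the rGST libraries (color, with values past 3 in either direction shown at the end of the scale) for each tested target gene (rows) in each library (columns), with induced targets above the black line and repressed targets below it. *Il11*, *Angptl4* and *Cdkn1a* are red in all 3 rSLURP1 libraries while 17 induced targets were called lower. Among the 17 are *Col1a1* and *Acta2*, which entered the test through rGST libraries alone.

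Of 23 genes of the p38 pathway other than *Mapk14*, 21 were tested, 12 were lower (57.1%, beside 58.5% of all tested genes) and 4 higher (19.0%, beside 8.66%), with a median of -0.26. After median-ratio scaling the split was 4 lower and 8 higher, beside backgrounds of 25.3% and 25.8%. *Map2k6*, a kinase that activates p38, was at 6.14, 6.67 and 7.14 TPM in rGST and at 4.16, 3.68 and 3.36 TPM in rSLURP1 libraries (-0.69 ± 0.11, SE, limma adjusted p = 0.000918). *Hspb1*, a small heat shock protein gene whose product is phosphorylated downstream of p38, was at 40.1, 40.2 and 43.3 TPM against 73.4, 78.6 and 67.5 TPM (0.81 ± 0.066, SE, limma adjusted p = 3.73e-05). *Mapk12* was lower by limma (-0.71, adjusted p = 0.00371). After quantile normalization neither *Map2k6* (-0.30, limma adjusted p = 0.0565) nor *Mapk12* (-0.31, limma adjusted p = 0.115) was called. *Mapkapk2*, the p38 substrate kinase gene with the highest level here, was at 86.9 ± 4.66 and 91.0 ± 5.95 TPM (SD, n = 3 each), which overlapped (0.06, limma adjusted p = 0.389).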

How the data were processed

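RNA of 6 D2A1 spheroid libraries, 3 treated with rSLURP1 and 3 with rGST, was sequenced. The authors deposited 1 table of TPM per gene and library, made with Cutadapt, STAR two-pass alignment to mm10 and RSEM with GENCODE annotation, and versions in the submitters' processing notes are cutadapt 1.18, STAR 2.5.2b and RSEM 1.3.3. For the library kit, TruSeq mRNA stands in the labels and Smart-seq2 in the study's methods. Read depth cannot be had from TPM and is unknown, and no counting interval is given. TPM of a gene is relative to all others in its library.

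Genes that reached 1 TPM in 3 or more libraries were tested on log2(TPM + 1) with limma 3.58.1 (lmFit, eBayes with trend) in R 4.3.3, with Benjamini-Hochberg adjustment over 12301 genes and no covariate. The script was tested on simulated data. Shares of summed TPM were compared with exact two-sided permutation tests (scipy 1.17.1). Alternatives were median-ratio scaling, quantile normalization, removal of mitochondrial genes, a replicate block, leaving out each library, 0.1 as pseudocount, and testing every gene above 0 TPM in any library or those at 1 TPM in all 6 libraries. Median-ratio scaling divided each library by the median ratio of its genes to their geometric means, over genes above 0 in every library with a mean of at least 1 TPM.

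Members and lists were chosen with earlier results of these data known. An entry of the list of induced targets is not reported here and stands in none of the counts of that list. Named from each list were the 2 called genes with the largest fold change each way and the 2 with the highest mean TPM. Gene coordinates are from GENCODE on GRCm38 (mm10). In that annotation exons of *Tgfb2*, *Tgfb3* and *Tgfbr3* overlap those of 4 other genes, none above 0.13 TPM here. The table counts TPM without stated strand, so reads of such neighbours cannot be told apart from the members.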

Additional observations from a re-analysis of the deposited data

How the results depend on the processing

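Median-ratio scaling called 3111 genes lower and 3173 higher, and quantile normalization 2905 and 3111, against 7200 and 1065 with TPM as deposited. Both scalings called 2 of the 10 genes higher. In the same order, genes called higher numbered 3 and 2 for latent ligand storage, 6 and 7 for SMADs and regulators, and 8 and 7 for the p38 pathway, and median-ratio scaling called 1 receptor partner higher. Called lower were 5 and 5 receptor partners, 8 and 8 SMADs and regulators, 0 and 0 repressed targets, and 4 and 1 p38 pathway genes. *Mapk14* turned from -0.29 to 0.050 and 0.047, *Fkbp1a* from -0.15 to 0.21 and 0.0099, and *Ppm1a* from -0.03 to 0.32 and 0.19. Quantile normalization, unlike linear scaling, also moved shares, to 20.4 percentage points for *Tgfb1* and -1.74 for *Tgfb2*.

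Leaving out 1 library at a time gave 0 to 1 gene called higher for latent ligand storage and for SMADs and regulators, 6 to 7 of the 10 genes lower, and log2 fold changes of -0.033 to 0.11 for *Tgfb1* (negative without rSLURP1 replicate 3) and -0.030 to 0.096 for *Tgfbr1* (negative without rGST replicate 2, and -0.0083 without rSLURP1 replicate 1). *Tgfb2* and *Col1a1* gave no value with the filter in all 6 libraries or without an rGST library, since they then missed the filter, and this lowered the count of the 10 genes by 1. Quantile normalization called 5 of the 10 genes lower, *Tgfb2* among them, which entered the test through its rGST libraries alone. Same-numbered libraries correlated at -0.0556, -0.034 and -0.0607 in their deviations, and other-numbered ones at 0.025 on average. No pairing by replicate number was thus seen in the values, which cannot show how the cultures were run. With a replicate block 6954 genes were lower and 1008 higher, 7 of the 10 genes were lower and 0 higher, and the count of SMADs and regulators called higher was 0, because *Tgif1* was lost (limma adjusted p = 0.0640). Of 473 values of 37 named genes under all alternatives, 441 kept direction and call, 14 lost the call, 9 gained it and 9 turned direction.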
